A study of Mus musculus with 36 samples.

Results

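The TNF superfamily was followed in 18 mRNA libraries of mouse left ventricle. Its members were taken by symbol: every gene of the deposited expression table whose symbol starts with Tnfsf or Tnfrsf and a number, and Tnf, Lta, Ltb, Ltbr, Fas, Fasl, Cd40, Cd27 and Eda2r. This gave 38 of 16415 genes, 14 ligands and 24 receptors. Cd40lg, Cd70 and the gene for RANK ligand (Tnfsf11) were not analysed here. The MI groups were C57BL/6 mice whose proximal left anterior descending coronary artery was ligated, killed 1 day, 1 week or 8 weeks after surgery. In the sham groups the surgery left the artery open, and the mice were killed at the same stages. All mice were males operated on at 8 weeks of age, with no engineered allele or drug named. Each group had 3 libraries, made from pooled ventricles according to the labels. Nothing says how many animals a library holds or that libraries came from separate animals, so the tests weigh only the variation among these libraries, which may be technical.

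Ligands of this superfamily are trimeric proteins, mostly made at the cell surface and in part cut off as soluble cytokines. They cluster their receptors, which carry cysteine-rich repeats outside the cell. Receptors with a death domain, such as Fas, can start caspase activation, whereas most others recruit TRAF adaptor proteins and switch on NF-kappaB and MAP kinase signalling. Decoy receptors bind ligand without passing a signal on. In the infarcted heart the family is best known through Tnf itself, an early cytokine of leukocytes and stressed cardiomyocytes.

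Values are FPKM, reads of a gene scaled to the length of its transcripts and to the mapped reads of the library, so levels of different genes can be compared. Of the 38 members, 28 had at least 1 FPKM in at least 3 libraries and were tested, 9 of the 14 ligands and 19 of the 24 receptors. Differences were tested on log2(FPKM + 1) with limma across the 12858 genes that passed the same filter, with a threshold of 0.05 on the adjusted p. For 14 of the 28 members no sham library reached 1 FPKM, so they passed the filter through MI libraries only and had to be higher in some MI group. These were the ligands Ltb, Tnf, Tnfsf9, Tnfsf13, Tnfsf13b and Tnfsf14. The receptors among them were Tnfrsf9, Tnfrsf11a, Tnfrsf11b, Tnfrsf13b, Tnfrsf18, Tnfrsf22, Tnfrsf25 and Tnfrsf26. For each of these the filter favours a higher call, which limits what the adjusted p below can show. Tnf, Tnfrsf9 and Tnfsf14 passed through exactly 3 libraries, those of MI at 1 day. The other 10 members never reached 1 FPKM in any library.

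Markers of several cell types differed between infarcted and sham tissue, which bears on how the values below can be read. The summed FPKM of 10 cardiomyocyte markers lay between 14170 and 17500 in MI and between 38960 and 41930 in sham libraries after 1 day, between 2853 and 8998 in MI and 41950 and 47150 in sham libraries after 1 week, and between 15910 and 38040 in MI and 44280 and 45660 in sham libraries after 8 weeks. The 8 neutrophil markers summed to between 6228 and 10160 FPKM in MI and 18.9 and 39.0 FPKM in sham libraries at 1 day, and to no more than 75.8 FPKM in MI libraries at 1 week. The 9 macrophage markers measured summed to between 3214 and 3786 FPKM in MI libraries at 1 week, against 145.7 to 252.3 FPKM in sham libraries. In bulk tissue, fewer cells of a type and less RNA per cell cannot be told apart, and the part of cell composition in the differences was not tested. The median gene was also higher in MI, by 0.09 after 1 day, 0.79 after 1 week and 0.52 after 8 weeks on the log2 scale. Differences are therefore given with this shift in mind, and "relative" values have it subtracted. On the log2(FPKM + 1) scale the differences of low genes are understated, so their relative values lean low. The libraries of MI at 8 weeks were unlike each other: replicate 3 had the lowest cardiomyocyte sum, the highest macrophage sum (2018 FPKM, against 737 and 1103 FPKM in replicates 1 and 2) and 309 FPKM of 4 adipocyte markers, against 0.424 and 107.9 FPKM in replicates 1 and 2. It also held the highest of the 3 values for 24 of the 28 tested members. The share of all genes highest in this library was not counted, and its median-ratio factor was also the largest of the group (1.48, against 1.05 and 1.25). Other groups leaned likewise: MI replicate 2 at 1 day held the highest value for 21 members, and sham replicate 1 at 1 week for 22.

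The bases before the start are shown for the members with the largest 1-day differences that have a RefSeq promoter entry, Tnfsf14, Tnfrsf23, Tnfrsf9, Tnfrsf1b and Ltb, in that order, and for Tnf, since all were higher in MI at 1 day. Tnfrsf26, whose difference was also larger than that of Ltb, is not shown here. For each gene, the 250 bases before a transcription start are printed (GRCm38.p6, the build called mm10 in the sample records), and capitals mark a match to the letters of a kappaB site (GGGNNNTTC), an AP-1 site (TGANTCA) or, resembling an interferon response element, GAAANNGAA on either strand. No match overlaps another. The windows are chr17:57194182-57194431 (Tnfsf14, minus strand), chr7:143685876-143686125 (Tnfrsf23, minus strand), chr4:150927749-150927998 (Tnfrsf9, plus strand), chr4:145246871-145247120 (Tnfrsf1b, minus strand), chr17:35194257-35194506 (Ltb, plus strand) and chr17:35202008-35202257 (Tnf, minus strand). Tnfrsf9 is shown at the second of its listed starts, and the window of the first holds no match.
Tnfsf14: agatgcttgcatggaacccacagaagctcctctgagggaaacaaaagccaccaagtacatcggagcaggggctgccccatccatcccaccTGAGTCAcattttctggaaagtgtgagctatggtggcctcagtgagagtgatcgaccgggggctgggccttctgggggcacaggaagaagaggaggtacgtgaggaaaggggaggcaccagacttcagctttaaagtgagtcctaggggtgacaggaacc
Tnfrsf23: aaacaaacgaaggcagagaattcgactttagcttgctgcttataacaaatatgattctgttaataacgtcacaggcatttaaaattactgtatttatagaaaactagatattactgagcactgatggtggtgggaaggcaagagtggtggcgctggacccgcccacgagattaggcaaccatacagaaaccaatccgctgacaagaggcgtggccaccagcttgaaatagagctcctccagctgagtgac
Tnfrsf9: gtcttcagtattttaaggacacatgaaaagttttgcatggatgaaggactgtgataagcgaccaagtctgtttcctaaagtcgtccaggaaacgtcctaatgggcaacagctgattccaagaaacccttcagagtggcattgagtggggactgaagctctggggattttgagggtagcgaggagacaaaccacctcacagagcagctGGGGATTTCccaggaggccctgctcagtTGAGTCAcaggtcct
Tnfrsf1b: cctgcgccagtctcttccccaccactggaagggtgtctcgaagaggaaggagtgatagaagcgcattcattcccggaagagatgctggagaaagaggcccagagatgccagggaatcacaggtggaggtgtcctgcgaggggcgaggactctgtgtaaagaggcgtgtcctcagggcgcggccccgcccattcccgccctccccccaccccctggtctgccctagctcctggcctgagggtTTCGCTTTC
Ltb: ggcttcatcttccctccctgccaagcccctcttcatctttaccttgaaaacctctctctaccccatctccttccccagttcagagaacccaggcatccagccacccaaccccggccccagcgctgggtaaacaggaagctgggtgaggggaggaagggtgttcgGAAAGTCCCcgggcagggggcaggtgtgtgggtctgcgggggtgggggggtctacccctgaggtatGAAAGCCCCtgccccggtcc
Tnf: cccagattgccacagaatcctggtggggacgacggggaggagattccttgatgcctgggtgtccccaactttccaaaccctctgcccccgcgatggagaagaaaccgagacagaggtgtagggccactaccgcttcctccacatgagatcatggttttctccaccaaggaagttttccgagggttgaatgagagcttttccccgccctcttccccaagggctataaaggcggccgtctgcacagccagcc
Matches to the kappaB letters lay 86 and 20 bases before the start of Ltb and 43 before that of Tnfrsf9, and an AP-1 match 160 bases before the start of Tnfsf14 and 15 before that of Tnfrsf9. The letters GAAANNGAA matched 9 bases before the start of Tnfrsf1b, and the windows printed for Tnfrsf23 and Tnf hold none of the matches. Over windows from 250 bases before to 50 after each start, the kappaB letters occurred in 9 of the 31 members with an entry, 29.0% (Ltb, Tnf, Tnfrsf9, Tnfrsf17, Tnfrsf21, Tnfrsf25, Tnfsf18, Eda2r and the read-through gene of Tnfsf12 and Tnfsf13), and in 15.8% of 27025 genes. The AP-1 letters occurred in 5 of the 31, 16.1% (Tnfsf14, Tnfrsf9, Fas, Tnfsf13 and Tnfsf13b), and in 8.97% of genes. The letters GAAANNGAA occurred in 6, 19.4% (Tnfrsf1b, Tnfrsf4, Tnfrsf14, Tnfrsf17, Tnfsf8 and Tnfsf13b), and in 9.76% of genes. These are matches of letters only.

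At 1 day, 22 of the 28 tested members were higher in MI and 2 were lower, where 39.7% of all genes tested were called higher and 30.6% lower. At 1 week 26 were higher and 0 lower by limma, where 72.8% of genes were called higher and 16.5% lower. At 8 weeks 25 were higher and 0 lower, where 70.4% of genes were called higher and 10.6% lower. At an unadjusted p under 0.05, 0 members were lower at either of these stages as well. The 3 MI libraries lay above all 3 sham libraries for 23 members after 1 day, 27 after 1 week and 24 after 8 weeks. The same held for 45.4%, 74.8% and 66.3% of all genes tested at these stages. These counts describe the members that passed the filter and lean towards MI for the reason given above. Of the 14 members with a sham library at 1 FPKM or more, 11, 13 and 12 were higher at the 3 stages and 1, 0 and 0 were lower.

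**Figure D1:**
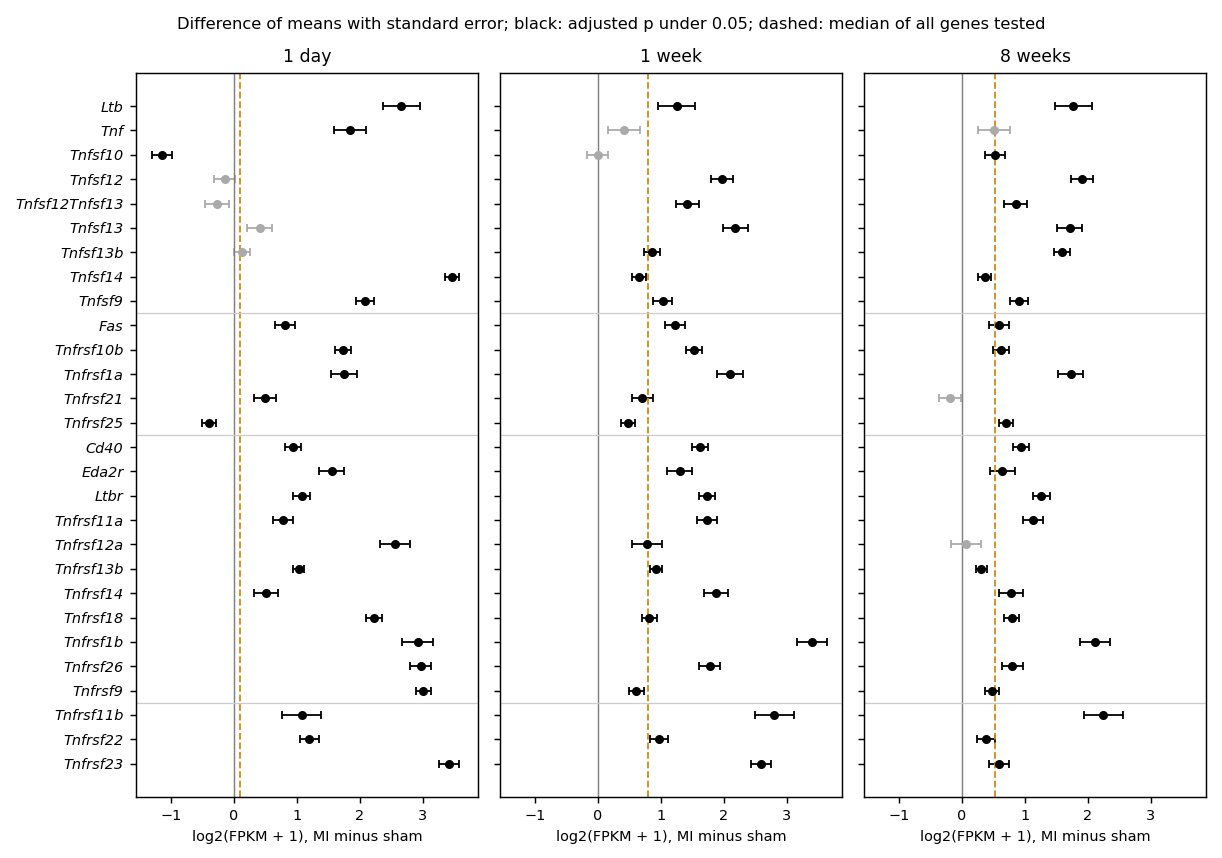
Difference in mean log2(FPKM + 1), MI minus sham, for the 28 tested members (rows, grouped as ligands, death domain receptors, other receptors and decoys) at the 3 stages. Bars are standard errors, black marks an adjusted p under 0.05, grey the rest, and the dashed line is the median of all genes tested, 0.09, 0.79 and 0.52. At 1 day many members lie far right of the dashed line, whereas at 8 weeks most lie near it.

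The median difference over the 28 members was 1.14 after 1 day, 1.27 after 1 week and 0.78 after 8 weeks, or 1.04, 0.48 and 0.26 relative to the median gene. For the 9 ligands the relative medians were 0.31, 0.23 and 0.38, and for the 19 receptors 1.10, 0.73 and 0.17. These medians lean towards MI as the counts do, since 14 of the 28 members passed the filter through MI libraries only. All 19 tested receptors except Tnfrsf25 were higher at 1 day and 4 of the 9 ligands were, where 39.7% of all genes tested were called higher. The other 3 scalings of the libraries that were tried (median-ratio factors, quantile normalization and the authors' normalized values) bring the median gene close to 0. Under all 3 of them, 21 of the 22 members higher after 1 day, 18 of the 26 after 1 week and 11 of the 25 after 8 weeks were still called higher. The share of all genes that kept such a call was not counted, so whether the members differ from other genes in this is unknown.

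Among the ligands, Tnfsf14 stood out at 1 day. This ligand, also called LIGHT, is made by activated leukocytes and binds Tnfrsf14 and Ltbr. It had 9.72, 14.6 and 10.3 FPKM in MI and 0.137, 0.145 and 0.08105 FPKM in sham libraries at 1 day. All MI libraries were above 9 FPKM and no sham library reached 0.2 FPKM, a 95.2-fold ratio of the means and a log2 difference of 3.46 ± 0.11 (SE; adjusted p = 9.92e-13). Tnfsf14 passed the filter only through these MI libraries, so a higher level there was a condition of its being tested. It had 0.717, 0.594 and 0.534 FPKM in MI and 0.0491, 0 and 0.0323 FPKM in sham libraries at 1 week. By 8 weeks it had 0.253, 0.301 and 0.399 FPKM in MI and 0.0319, 0 and 0.05298 FPKM in sham libraries. The groups still did not overlap, but levels were under 1 FPKM and the relative differences were -0.14 and -0.17. The difference at 8 weeks lost its call under quantile normalization and the authors' normalized values.

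Ltb, lymphotoxin beta, forms membrane trimers with lymphotoxin alpha that bind Ltbr. It had 4.78, 13.1 and 8.27 FPKM in MI and 0.352, 0.451 and 0.543 FPKM in sham libraries at 1 day. MI replicate 2 was 2.75 times replicate 1, and even the lowest MI library was far above the sham libraries, with a log2 difference of 2.66 ± 0.30 (SE; adjusted p = 8.04e-07). At 1 week it had 2.704, 1.65 and 2.45 FPKM in MI and 0.518, 0.336 and 0.2404 FPKM in sham libraries. At 8 weeks it had 1.59, 2.597 and 5.42 FPKM in MI and 0.119, 0.315 and 0.03295 FPKM in sham libraries, with a log2 difference of 1.77 ± 0.30 (SE; adjusted p = 6.39e-05). MI replicate 3 was the highest of that group, and its 6 B cell markers summed to 27.9 FPKM, against 6.42 and 9.86 FPKM in replicates 1 and 2 and at most 1.23 FPKM in sham libraries of that stage. Without that library the difference was 1.41 and was still called (adjusted p = 0.000205). The difference at 1 week was not called under quantile normalization or with the authors' normalized values.

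Tnf itself, the ligand of Tnfrsf1a and Tnfrsf1b, was low. It had 1.43, 5.46 and 4.56 FPKM in MI and 0.224, 0.241 and 0.231 FPKM in sham libraries at 1 day. MI replicate 1 was well under the other MI libraries but above all sham libraries, and the groups differed by a log2 difference of 1.85 ± 0.25 (SE; adjusted p = 7.72e-06). Because only these MI libraries let Tnf pass the filter, it had to be higher there to be tested. Tnf had 0.431, 0.507 and 0.802 FPKM in MI and 0.338, 0.0976 and 0.1297 FPKM in sham libraries at 1 week. Its 8-week values were 0.424, 0.358 and 0.939 FPKM in MI and 0.133, 0.0223 and 0.122 FPKM in sham libraries. Neither later difference passed the threshold (log2 difference 0.41, adjusted p = 0.137 at 1 week and 0.51, adjusted p = 0.0748 at 8 weeks), although the groups did not overlap. Under quantile normalization they were -0.12 and -0.01. Leaving out MI replicate 1 of 1 day brought both under the threshold (adjusted p = 0.00799 and 0.00234), as did a fit of each stage alone (0.00763 and 0.0245) and a pseudocount of 0.1 (0.0135 and 0.00207). Ltb and Tnf lie 3061 bases apart on chromosome 17, and Lta 1157 bases from Tnf. Lta, lymphotoxin alpha, stayed at or under 0.295 FPKM in every library.

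Tnfsf9 costimulates T cells through Tnfrsf9. The ligand had 4.78, 4.49 and 5.27 FPKM in MI and 0.2501, 0.444 and 0.472 FPKM in sham libraries at 1 day. Its 1-week values were 1.52, 1.803 and 1.07 FPKM in MI and 0.265, 0.159 and 0.183 FPKM in sham libraries. By the last stage it had 0.753, 1.01 and 1.82 FPKM in MI and 0.155, 0.182 and 0.115 FPKM in sham libraries. The MI and sham groups were apart at all stages, by a log2 difference of 2.08 ± 0.14 (SE; adjusted p = 4.42e-09) after 1 day and relative differences of 0.23 after 1 week and 0.38 after 8 weeks. Tnfsf9 and Tnfsf14 both lie on chromosome 17, with 81715 bases between them.

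**Figure D2:**
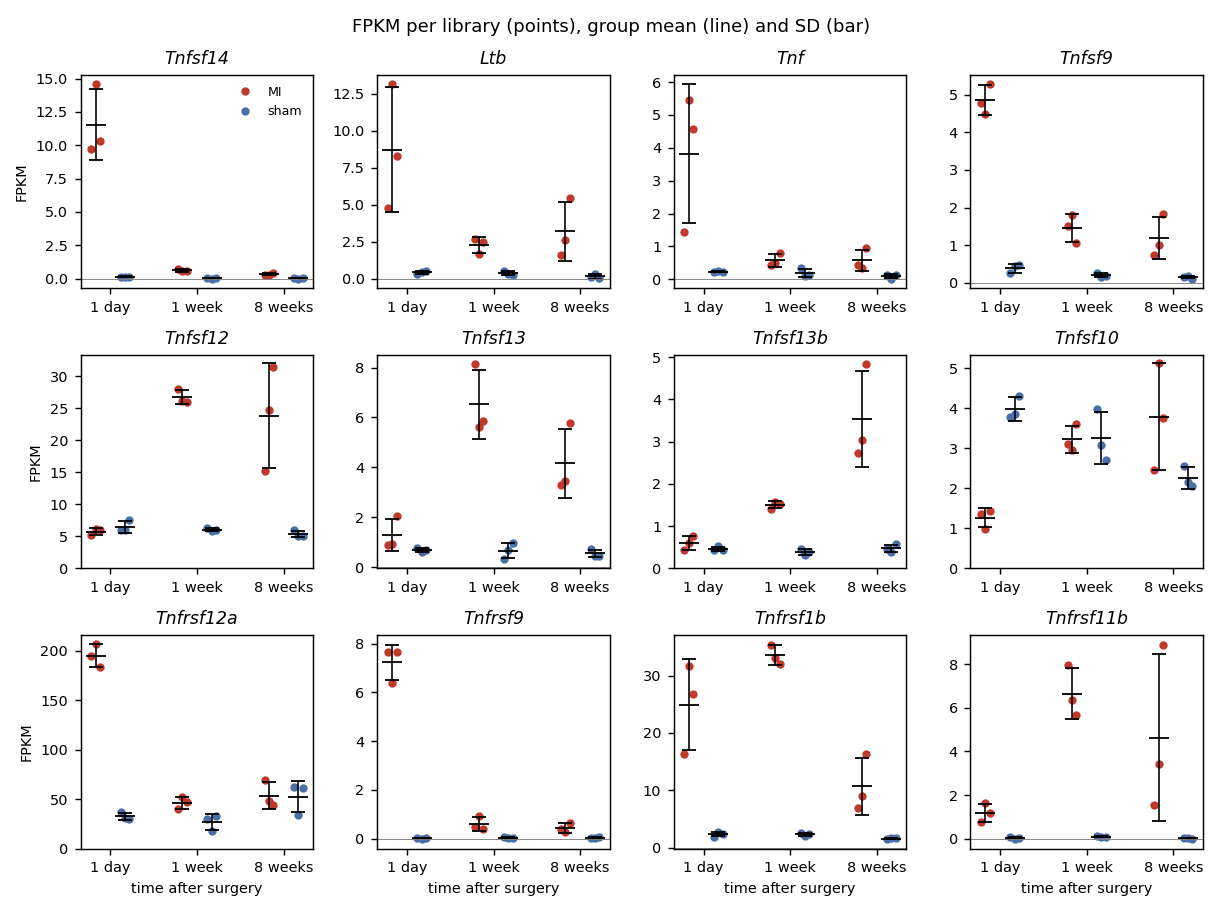
FPKM in each library for 8 ligands and 4 receptors at the 3 stages, with MI left of sham; points are libraries, the line is the group mean and the bar the SD (n = 3). Tnfsf14, Tnfrsf9 and Tnfrsf12a peak in MI after 1 day, Tnfsf12 and Tnfsf13 are high in MI after 1 week and 8 weeks, Tnfsf13b is highest in MI after 8 weeks, and Tnfsf10 is below sham after 1 day.

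A second set of ligands was not higher at 1 day and was high later. Tnfsf12, or TWEAK, is the ligand of Tnfrsf12a. It had 5.17, 6.08 and 5.98 FPKM in MI and 5.95, 6.01 and 7.54 FPKM in sham libraries at 1 day, groups that overlapped. The 1-week libraries held 28.03, 26.1 and 26.01 FPKM in MI and 6.27, 5.86 and 6.02 FPKM in sham libraries. Its 8-week values were 15.3, 24.8 and 31.5 FPKM in MI and 5.998, 5.02 and 5.101 FPKM in sham libraries. Each MI library was above every sham library at both later stages, with a log2 difference of 1.98 ± 0.17 (SE; adjusted p = 2.85e-08) at 1 week and a log2 difference of 1.91 ± 0.17 (SE; adjusted p = 1.67e-07) at 8 weeks. These differences were called under all 3 other scalings. At 1 day the difference was -0.15 and not called (adjusted p = 0.456), but was called lower under those scalings (-0.40, -0.27 and -0.41 under quantile normalization, median-ratio factors and the authors' normalized values). Tnfsf12 was the most abundant ligand in all sham libraries and in all MI libraries at 1 week and 8 weeks.

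Tnfsf13, or APRIL, acts on B cells and plasma cells through Tnfrsf13b and Tnfrsf17. It had 0.903, 0.931 and 2.03 FPKM in MI and 0.775, 0.606 and 0.677 FPKM in sham libraries at 1 day. At 1 week the levels were 8.13, 5.62 and 5.84 FPKM in MI and 0.335, 0.698 and 0.955 FPKM in sham libraries. The 8-week libraries held 3.27, 3.44 and 5.76 FPKM in MI and 0.724, 0.459 and 0.463 FPKM in sham libraries. The groups did not overlap at any stage, but only the later differences were called (a log2 difference of 2.18 ± 0.20 (SE; adjusted p = 5.76e-08) at 1 week and a log2 difference of 1.71 ± 0.20 (SE; adjusted p = 2.48e-06) at 8 weeks). At 1 day the difference was 0.41 (adjusted p = 0.087), and it was called when each stage was fitted alone (0.0417) or without MI replicate 3 of 8 weeks (0.0439).

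Tnfsf12 and Tnfsf13 lie on chromosome 11, with 685 bases between them, and the table also lists their read-through gene, Tnfsf12Tnfsf13 (RefSeq symbol Tnfsfm13), which spans both. How reads were split among these 3 entries is not known, so their separate levels are uncertain. The read-through entry had 1.62, 1.67 and 0.861 FPKM in MI and 1.503, 1.71 and 2.35 FPKM in sham libraries at 1 day. It had 6.19, 5.86 and 6.78 FPKM in MI and 2.32, 1.69 and 1.24 FPKM in sham libraries at 1 week. At 8 weeks the levels were 2.75, 4.08 and 4.86 FPKM in MI and 1.603, 2.05 and 1.397 FPKM in sham libraries. All 3 entries were higher in MI at 1 week and 8 weeks, but the call of the read-through entry at 8 weeks was lost under all 3 other scalings.

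Tnfsf13b, or BAFF, is a survival factor of B cells. It had 0.444, 0.611 and 0.765 FPKM in MI and 0.4398, 0.521 and 0.433 FPKM in sham libraries at 1 day, where the groups overlapped. At 1 week it had 1.41, 1.58 and 1.53 FPKM in MI and 0.456, 0.311 and 0.395 FPKM in sham libraries. At 8 weeks it had 2.73, 3.04 and 4.83 FPKM in MI and 0.462, 0.397 and 0.571 FPKM in sham libraries, with a log2 difference of 1.59 ± 0.13 (SE; adjusted p = 5.8e-08). With FPKM as deposited it was the only tested member whose MI minus sham difference was called larger at 8 weeks than at 1 week, by 0.74 ± 0.18 (SE; adjusted p = 0.00448), where 17.1% of genes were called so. Tnfsf10 was also called so under the 3 other scalings (0.70, 0.71 and 0.69) and without MI replicate 1 of 8 weeks (0.74). The relative difference of Tnfsf13b was 0.06 at 1 week and 1.07 at 8 weeks. With 0.1 FPKM added in place of 1 FPKM, its 1-week difference was 1.73, where that of the median gene was 0.99. Without MI replicate 3, whose B cell markers were the highest, the difference at 8 weeks was 1.40 (adjusted p = 3.86e-09) and still called.

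Tnfsf10, or TRAIL, a ligand that can trigger apoptosis, went the other way at first. It had 1.37, 0.991 and 1.43 FPKM in MI and 3.78, 3.86 and 4.32 FPKM in sham libraries at 1 day. Every MI library was below every sham library, a log2 difference of -1.14 ± 0.16 (SE; adjusted p = 1.28e-05), also under the other scalings. It had 3.103, 2.95 and 3.61 FPKM in MI and 3.98, 3.08 and 2.71 FPKM in sham libraries at 1 week, where the groups overlapped and the difference was 0.00 (adjusted p = 0.98). Relative to the median gene it was -0.80 at 1 week, and the 3 other scalings called it lower there (-0.87, -0.72 and -0.87). At 8 weeks it had 2.47, 5.13 and 3.77 FPKM in MI and 2.56, 2.15 and 2.06 FPKM in sham libraries, with overlapping groups and a called difference of 0.52 (adjusted p = 0.00865) that was negative under each of the 3 other scalings and not called without MI replicate 2 (adjusted p = 0.0625).

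**Figure D3:**
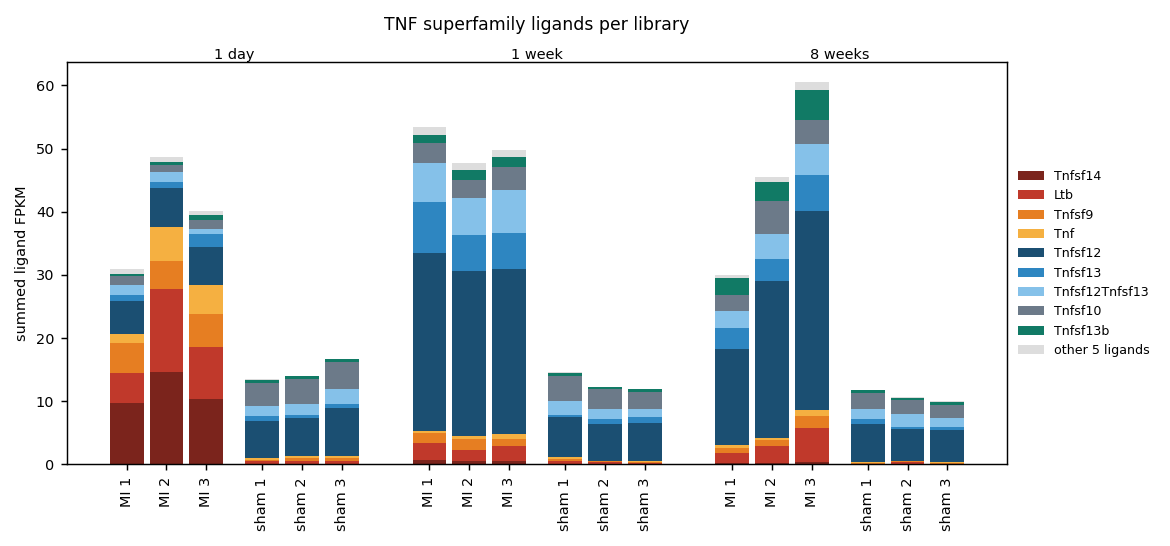
Summed FPKM of the 14 ligands in each library, MI left of sham at each stage, with each ligand as a segment of the bar. Sums lie between 30.9 and 48.7 FPKM in MI libraries after 1 day, 47.8 and 53.5 after 1 week and 30.0 and 60.6 after 8 weeks, and between 10.02 and 16.7 FPKM in sham libraries; Tnfsf14 is the largest segment in MI after 1 day and Tnfsf12 in all other bars.

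The ligand that led the sum differed between groups as well. Tnfsf14 held 31.5%, 29.9% and 25.8% of the summed ligand FPKM in the 3 MI libraries at 1 day. In the sham libraries of that stage Tnfsf12 held 44.0%, 42.7% and 45.2% and Tnfsf10, the next, 28.0%, 27.4% and 25.8%. In MI at 1 week Tnfsf12 held 52.4%, 54.7% and 52.2%, and at 8 weeks 50.9%, 54.5% and 52.0%.

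Of the receptors with a death domain, Tnfrsf1a was the most abundant. It is the receptor through which Tnf signals in most cell types. It had 45.3, 61.1 and 51.8 FPKM in MI and 13.9, 14.99 and 15.9 FPKM in sham libraries at 1 day. Its 1-week values were 64.9, 66.2 and 61.2 FPKM in MI and 15.9, 11.4 and 15.7 FPKM in sham libraries. Values of 25.7, 36.96 and 58.6 FPKM in MI and 10.6, 10.98 and 11.1 FPKM in sham libraries followed at 8 weeks. All MI libraries were above all sham libraries, with a log2 difference of 1.75 ± 0.20 (SE; adjusted p = 1.38e-06) after 1 day, 2.10 after 1 week and 1.72 after 8 weeks. No difference between stages was called for this receptor (adjusted p of 0.285, 0.294 and 0.95), the only tested member of which this was true, although median-ratio factors called it lower after 1 week and after 8 weeks than after 1 day (-0.46 and -0.57). The change from 1 week to 8 weeks was -0.37, and without MI replicate 3 of 8 weeks it was -0.68 and called (adjusted p = 0.00885).

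Fas, which triggers apoptosis when bound by Fas ligand, had 11.7, 18.5 and 17.1 FPKM in MI and 8.37, 8.39 and 8.36 FPKM in sham libraries at 1 day. The 1-week libraries held 22.5, 20.6 and 18.1 FPKM in MI and 8.07, 7.79 and 8.49 FPKM in sham libraries. Its 8-week values were 11.8, 14.03 and 17.1 FPKM in MI and 7.48, 10.8 and 9.41 FPKM in sham libraries. The groups did not overlap at any stage, with differences of 0.81 after 1 day, 1.23 after 1 week and 0.58 after 8 weeks. The 8-week difference was 0.06 relative to the median gene, lost its call under all 3 other scalings and was -0.08 under median-ratio factors. Its ligand Fasl was at most 0.328 FPKM in any library and was 0 in all 3 sham libraries at 1 day.

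Tnfrsf10b, the signalling receptor for Tnfsf10 in mice, had 4.51, 6.19 and 5.34 FPKM in MI and 0.961, 0.815 and 0.948 FPKM in sham libraries at 1 day. At 1 week the levels were 4.802, 4.84 and 4.22 FPKM in MI and 1.102, 0.745 and 1.02 FPKM in sham libraries. By the last stage it had 1.31, 1.63 and 2.28 FPKM in MI and 0.7998, 0.873 and 0.623 FPKM in sham libraries. The receptor was thus higher in MI at 1 day, a log2 difference of 1.73 ± 0.13 (SE; adjusted p = 7.54e-09), in the libraries where its ligand was lower. At 8 weeks the difference was 0.62, or 0.10 relative to the median gene, and it was negative under quantile normalization and the authors' normalized values.

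Tnfrsf25 binds Tnfsf15 and is found mainly on lymphocytes. It had 0.157, 0.389 and 0.307 FPKM in MI and 0.727, 0.679 and 0.645 FPKM in sham libraries at 1 day. It was the only tested receptor lower in MI at that stage, a log2 difference of -0.39 ± 0.11 (SE; adjusted p = 0.00449). It had 1.46, 1.04 and 1.22 FPKM in MI and 0.653, 0.505 and 0.643 FPKM in sham libraries at 1 week. Its 8-week values were 1.33, 1.31 and 1.67 FPKM in MI and 0.711, 0.574 and 0.265 FPKM in sham libraries. Both later differences were called higher (0.48 and 0.69), but at 1 week quantile normalization gave -0.27 and called it lower, and at 8 weeks 2 of the 3 scalings lost the call.

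Tnfrsf21, another death domain receptor, had 3.98, 5.03 and 4.48 FPKM in MI and 2.51, 2.67 and 3.56 FPKM in sham libraries at 1 day. At 1 week it had 6.86, 6.62 and 6.95 FPKM in MI and 3.79, 3.77 and 3.82 FPKM in sham libraries. The 8-week libraries held 2.15, 3.74 and 5.06 FPKM in MI and 3.92, 4.66 and 3.87 FPKM in sham libraries. Its differences were small, 0.50 and 0.70 at the earlier stages and -0.19 at 8 weeks (adjusted p = 0.299), where the groups overlapped. Relative to the median gene they were 0.40, -0.09 and -0.72. The call after 1 day was lost under quantile normalization (adjusted p = 0.0517) and without MI replicate 2 or sham replicate 1 or 2 of that stage (adjusted p of 0.0541 to 0.0682), the sign after 1 week turned under all 3 other scalings, and all 3 called it lower after 8 weeks. Leaving out MI replicate 3 also gave a lower call at 8 weeks (-0.41, adjusted p = 0.0189).

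Among the other receptors, Tnfrsf12a, the receptor of Tnfsf12, had the highest level of all members at 1 day. This small receptor is known to be induced by injury and growth factors. It had 194, 206 and 183 FPKM in MI and 36.5, 31.3 and 29.4 FPKM in sham libraries at 1 day. The groups were far apart, with a log2 difference of 2.56 ± 0.24 (SE; adjusted p = 9.72e-08). Its 1-week values were 39.5, 51.8 and 46.6 FPKM in MI and 30.2, 18.02 and 32.7 FPKM in sham libraries. At 8 weeks it had 69.1, 47.8 and 43.7 FPKM in MI and 61.8, 34.04 and 60.8 FPKM in sham libraries, where the groups overlapped and the difference was 0.06 (adjusted p = 0.827), but negative under all 3 other scalings (-0.37, -0.64 and -0.38 under quantile normalization, median-ratio factors and the authors' normalized values) and called lower under median-ratio factors. At 1 week the called difference of 0.78 equalled that of the median gene, and it was not called under any of the 3 other scalings, with -0.16 under median-ratio factors. Tnfrsf12a held 56.8%, 49.0% and 49.6% of the summed receptor FPKM in MI libraries at 1 day and between 37.8% and 44.8% in sham libraries of that stage. Such shares were not particular to MI at 1 day, since sham libraries at 8 weeks had 61.95%, 44.6% and 60.5%. Hcfc1r1 shares 80 bases with Tnfrsf12a in the annotation. It averaged 26.4 ± 2.35 FPKM in MI and 53.2 ± 0.77 FPKM in sham libraries at 1 day (SD, n = 3 each), which is opposite in direction at this stage.

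Receptor and ligand of this pair had opposite courses, so their ratio within a library, which hardly depends on how libraries were scaled, was compared. Tnfrsf12a was 37.6, 34.0 and 30.6 times Tnfsf12 in MI libraries at 1 day, against 6.13, 5.20 and 3.89 times in sham libraries. At 1 week the ratios were 1.41, 1.98 and 1.79 in MI and 4.82, 3.08 and 5.44 in sham libraries. At 8 weeks they were 4.52, 1.93 and 1.39 in MI and 10.3, 6.79 and 11.9 in sham libraries. The groups did not overlap at any stage, with MI above sham at 1 day and below it afterwards. The mean log2 ratio, taken after adding 0.1 FPKM to each value, differed by 2.76 ± 0.21 (SE) after 1 day, -1.32 ± 0.29 after 1 week and -2.02 ± 0.56 after 8 weeks. An exact two-sided permutation test of 3 against 3 libraries gave p = 0.1 each time, the smallest it can give.

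**Figure D4:**
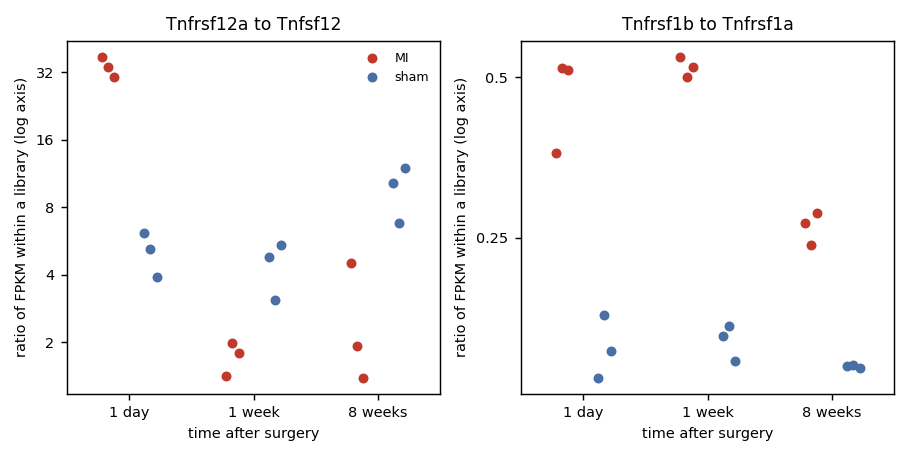
Ratio of FPKM within a library, on a log axis, for Tnfrsf12a to Tnfsf12 (left) and Tnfrsf1b to Tnfrsf1a (right) at the 3 stages, with MI left of sham; each point is 1 library. The first ratio is at least 30.6 in MI at 1 day and at most 6.13 in sham, then lies below sham, and the second lies above sham at all stages.

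Tnfrsf1b, the Tnf receptor without a death domain, is found mainly on leukocytes and endothelium. It had 16.3, 31.8 and 26.8 FPKM in MI and 1.902, 2.68 and 2.43 FPKM in sham libraries at 1 day. The 1-week libraries held 35.4, 33.1 and 31.99 FPKM in MI and 2.602, 1.96 and 2.31 FPKM in sham libraries. At 8 weeks the levels were 6.84, 8.94 and 16.3 FPKM in MI and 1.52, 1.58 and 1.58 FPKM in sham libraries. MI libraries were far above sham libraries, with a log2 difference of 2.92 ± 0.24 (SE; adjusted p = 2.55e-08) after 1 day, 3.40 after 1 week and 2.11 after 8 weeks. The difference after 1 week was the largest of all tested members at that stage, and all 3 kept their call under the 3 other scalings. Tnfrsf1b was 0.361, 0.519 and 0.517 times Tnfrsf1a in MI libraries at 1 day, against 0.137, 0.179 and 0.153 times in sham libraries. The ratio was 0.546, 0.5003 and 0.523 in MI against 0.163, 0.171 and 0.147 in sham libraries at 1 week. At 8 weeks it was 0.267, 0.242 and 0.279 in MI against 0.144, 0.144 and 0.142 in sham libraries. MI libraries were above sham libraries each time, by 1.52 ± 0.20, 1.66 ± 0.07 and 0.804 ± 0.06 on the log2 scale (exact p = 0.1, the smallest possible). After adding 1 FPKM in place of 0.1 the last difference was 0.39.

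Tnfrsf9, which receives Tnfsf9 on activated T cells and other leukocytes, was nearly absent from sham ventricles. It had 7.66, 6.39 and 7.65 FPKM in MI and 0.0449, 0 and 0.01504 FPKM in sham libraries at 1 day, with a log2 difference of 3.01 ± 0.11 (SE; adjusted p = 7.78e-12). Only these MI libraries let Tnfrsf9 pass the filter, so a higher level there was required for the test. At 1 week the levels were 0.501, 0.9198 and 0.385 FPKM in MI and 0.0608, 0.0458 and 0.01497 FPKM in sham libraries. Values of 0.413, 0.276 and 0.661 FPKM in MI and 0.0148, 0.0174 and 0.0797 FPKM in sham libraries followed at 8 weeks. At both later stages every value was under 1 FPKM, and the calls after 1 week and 8 weeks were lost under quantile normalization. The 7 T cell markers measured summed to between 1.77 and 2.52 FPKM in MI and 0.616 and 0.8705 FPKM in sham libraries at 1 day. At 1 week they summed to between 7.31 and 9.43 FPKM in MI and 0.753 and 0.998 FPKM in sham libraries. Which cells held Tnfrsf9 was not tested.

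Tnfrsf18, or GITR, a costimulatory receptor of regulatory and activated T cells, had 5.101, 5.18 and 3.94 FPKM in MI and 0.284, 0.2201 and 0.167 FPKM in sham libraries at 1 day. It had 1.34, 0.739 and 0.978 FPKM in MI and 0.0676, 0.271 and 0.08896 FPKM in sham libraries at 1 week. By 8 weeks its levels were 0.689, 1.05 and 0.904 FPKM in MI and 0.165, 0.104 and 0 FPKM in sham libraries. The difference at 1 day, a log2 difference of 2.22 ± 0.12 (SE; adjusted p = 3.2e-10), was far above the later ones of 0.82 and 0.79, which quantile normalization no longer called. Tnfrsf18 passed the filter through MI libraries only, which favours a higher call. Its ligand Tnfsf18 never exceeded 0.396 FPKM. Tnfrsf4, a costimulatory receptor 9708 bases from Tnfrsf18 on chromosome 4, was between 0.395 and 0.643 FPKM in the 9 MI libraries and between 0.0283 and 0.172 FPKM in the 9 sham libraries. It shares 16 bases with Sdf4, which averaged 77.2 ± 3.47 FPKM in MI and 22.3 ± 1.56 FPKM in sham libraries at 1 week (SD, n = 3 each).

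Ltbr and Tnfrsf14, the receptors of Tnfsf14, were highest at 1 week, after their ligand. Ltbr had 19.1, 23.6 and 21.4 FPKM in MI and 9.71, 9.27 and 9.84 FPKM in sham libraries at 1 day. At 1 week it had 33.5, 31.9 and 30.8 FPKM in MI and 9.35, 7.98 and 9.54 FPKM in sham libraries. By the last stage it had 15.8, 18.1 and 26.03 FPKM in MI and 7.81, 7.42 and 7.51 FPKM in sham libraries. The groups never overlapped and the differences of 1.07, 1.73 and 1.26 were called under every scaling. The gain of 0.66 from 1 day to 1 week was not called under the 3 other scalings and was -0.13 under median-ratio factors. Tnfrsf14 had 1.67, 2.25 and 2.44 FPKM in MI and 1.36, 1.09 and 1.09 FPKM in sham libraries at 1 day. Its 1-week values were 6.53, 6.47 and 6.44 FPKM in MI and 1.34, 0.984 and 0.853 FPKM in sham libraries. Its 8-week values were 1.301, 2.99 and 3.8 FPKM in MI and 0.922, 1.18 and 1.11 FPKM in sham libraries. Its difference of 1.87 at 1 week was larger than that of 0.51 at 1 day by 1.36 ± 0.27 (SE; adjusted p = 0.000377). The call at 1 day was lost when MI replicate 2 or 3 or sham replicate 2 or 3 of that stage was left out (adjusted p of 0.0668 to 0.0907), and that at 8 weeks under each other scaling. Ltbr, Tnfrsf1a and Cd27 lie near each other on chromosome 6, with 35837 bases between Ltbr and Tnfrsf1a and 69434 between Cd27 and Ltbr.

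Cd40, a receptor of antigen-presenting cells, had 2.26, 2.79 and 2.27 FPKM in MI and 0.831, 0.613 and 0.946 FPKM in sham libraries at 1 day. The 1-week libraries held 5.13, 4.91 and 4.58 FPKM in MI and 1.13, 0.677 and 0.958 FPKM in sham libraries. The 8-week libraries held 1.47, 2.11 and 2.69 FPKM in MI and 0.59, 0.491 and 0.716 FPKM in sham libraries. Every MI library was above every sham library of its stage. Tnfrsf11a, or RANK, known from osteoclasts and their macrophage-like precursors, had 1.37, 1.83 and 1.69 FPKM in MI and 0.434, 0.634 and 0.517 FPKM in sham libraries at 1 day. Its 1-week values were 3.64, 3.51 and 3.94 FPKM in MI and 0.584, 0.297 and 0.375 FPKM in sham libraries. At 8 weeks the levels were 1.21, 1.696 and 3.01 FPKM in MI and 0.351, 0.279 and 0.332 FPKM in sham libraries. Both were highest in MI at 1 week, with differences of 1.62 and 1.73, and both kept their calls at every stage and scaling. The gain of Cd40 from 1 day to 1 week, 0.68, was however between 0.03 and 0.04 and not called under the 3 other scalings, and that of Tnfrsf11a, 0.95, was called under median-ratio factors alone among them. The macrophage marker sum was also highest in MI at 1 week, and which cells held either receptor was not tested.

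Eda2r, a receptor for an ectodysplasin isoform, had 3.67, 6.65 and 5.09 FPKM in MI and 1.02, 0.967 and 1.16 FPKM in sham libraries at 1 day. It had 4.44, 4.42 and 3.47 FPKM in MI and 1.37, 0.999 and 0.8798 FPKM in sham libraries at 1 week. Values of 0.919, 1.71 and 2.71 FPKM in MI and 0.759, 0.776 and 0.637 FPKM in sham libraries followed at 8 weeks. Its difference at 8 weeks, 0.64, was 0.11 relative to the median gene, lost its call under every other scaling and turned negative under quantile normalization (-0.08) and the authors' normalized values (-0.06), and was not called without MI replicate 3 (0.40, adjusted p = 0.0502).

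Tnfrsf13b, or TACI, receives Tnfsf13 and Tnfsf13b. It had 1.101, 1.28 and 1.45 FPKM in MI and 0.104, 0.146 and 0.09802 FPKM in sham libraries at 1 day. At 1 week it had 0.984, 1.11 and 1.06 FPKM in MI and 0.09902, 0.0989 and 0.0488 FPKM in sham libraries. At 8 weeks it had 0.175, 0.171 and 0.519 FPKM in MI and 0, 0 and 0.107 FPKM in sham libraries. It was thus higher in MI after 1 day and 1 week, a log2 difference of 1.03 ± 0.09 (SE; adjusted p = 8.3e-08) and 0.92, and after 8 weeks, when Tnfsf13b was highest, its difference was 0.31 and was called only with FPKM as deposited and with median-ratio factors among the 4 scalings, with -0.03 under quantile normalization. The B cell receptor of Tnfsf13b, Tnfrsf13c, was below 1 FPKM throughout and highest in MI replicate 3 of 8 weeks (0.967 FPKM), the library with the highest B cell marker sum. The log2 ratio of Tnfrsf13b to Tnfrsf13c differed by 1.99 ± 0.37 (SE) after 1 day, 1.28 ± 0.19 after 1 week (exact p = 0.1, the smallest possible) and -0.38 ± 0.47 after 8 weeks (exact p = 0.6), again after adding 0.1 FPKM. After adding 1 FPKM instead, the ratios differed by 0.88 after 1 day and 0.61 after 1 week. Usp22 shares 1390 bases with Tnfrsf13b in the annotation and was more abundant, with 10.7 ± 0.74 FPKM in MI and 6.05 ± 0.57 FPKM in sham libraries at 1 day (SD, n = 3 each). At 1 week Usp22 averaged 19.3 ± 0.74 FPKM in MI and 6.15 ± 0.21 FPKM in sham libraries, the same direction as Tnfrsf13b, and reads in the shared bases cannot be told apart.

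The decoys included Tnfrsf11b, or osteoprotegerin, a secreted receptor that captures RANK ligand and Tnfsf10. It had 0.784, 1.61 and 1.18 FPKM in MI and 0.0548, 0 and 0.03102 FPKM in sham libraries at 1 day. Its 1-week values were 7.94, 6.36 and 5.66 FPKM in MI and 0.104, 0.0945 and 0.07204 FPKM in sham libraries. By the last stage it had 1.55, 3.42 and 8.898 FPKM in MI and 0.0102, 0.0479 and 0 FPKM in sham libraries. All sham libraries were at or under 0.104 FPKM, whereas MI libraries at 1 week were above 5 FPKM, with a log2 difference of 2.80 ± 0.31 (SE; adjusted p = 3.9e-07). The MI libraries of 8 weeks spread from 1.55 to 8.90 FPKM, and replicate 3 was again the highest. Without it the difference at 8 weeks was 1.72 (adjusted p = 9.53e-07). The fibroblast marker sum in MI libraries was between 268 and 299.6 FPKM at 1 day, 9564 and 11980 FPKM at 1 week and 1105 and 3741 FPKM at 8 weeks. In sham libraries it was between 237.9 and 323.8, 292.6 and 363.2 and 203.0 and 210.2 FPKM, so the groups overlapped at 1 day. Which cells held Tnfrsf11b was not tested.

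Tnfrsf22 and Tnfrsf23 are mouse decoys for Tnfsf10, and Tnfrsf26 is their neighbour. The 3 genes lie side by side on chromosome 7, 6962 and 16131 bases apart, and have similar sequences, so reads may be shared among them and their separate levels are uncertain. Tnfrsf23 had 14.4, 24.6 and 20.1 FPKM in MI and 1.02, 0.861 and 0.856 FPKM in sham libraries at 1 day. The 1-week libraries held 9.97, 11.9 and 7.96 FPKM in MI and 0.856, 0.754 and 0.808 FPKM in sham libraries. Its 8-week values were 1.75, 1.82 and 2.58 FPKM in MI and 1.01, 0.955 and 1.06 FPKM in sham libraries. Both later differences were called smaller than the one before: a log2 difference of 3.41 ± 0.16 (SE; adjusted p = 7.76e-11) after 1 day, 2.59 after 1 week and 0.59 after 8 weeks, where quantile normalization (-0.14) and the authors' normalized values (-0.13) turned it round. Tnfrsf26 had 5.87, 11.4 and 9.24 FPKM in MI and 0.237, 0.184 and 0.244 FPKM in sham libraries at 1 day. Tnfrsf26 had 2.69, 3.54 and 2.48 FPKM in MI and 0.148, 0.109 and 0.145 FPKM in sham libraries at 1 week. The 8-week libraries held 0.795, 0.8598 and 1.36 FPKM in MI and 0.173, 0.135 and 0.127 FPKM in sham libraries. The MI and sham groups of Tnfrsf26 did not overlap at any stage. Tnfrsf22 was less abundant in MI libraries than the other 2 genes at 1 day, with 2.34, 3.62 and 3.01 FPKM in MI and 0.794, 0.656 and 0.724 FPKM in sham libraries at 1 day. It had 2.17, 2.61 and 2.01 FPKM in MI and 0.771, 0.669 and 0.565 FPKM in sham libraries at 1 week. Tnfrsf22 had 0.485, 1.33 and 1.26 FPKM in MI and 0.507, 0.589 and 0.49 FPKM in sham libraries at 8 weeks, where the groups overlapped. All 3 were called higher at each stage, in the order Tnfrsf23 (3.41), Tnfrsf26 (2.97) and Tnfrsf22 (1.20) at 1 day, but the 8-week calls of Tnfrsf22, Tnfrsf23 and Tnfrsf26, and the 1-week call of Tnfrsf22, did not hold under all 3 other scalings (Tnfrsf22 was called lower at 8 weeks under quantile normalization, -0.31).

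The 10 members that stayed under 1 FPKM were Fasl, Lta, Tnfsf8, Tnfsf15 and Tnfsf18 among the ligands and Cd27, Tnfrsf4, Tnfrsf13c, Tnfrsf17 and Tnfrsf19 among the receptors. Of these, 7 had all MI libraries above all sham libraries after 1 day, 7 after 1 week and 7 after 8 weeks. The same held for 23.3%, 48.0% and 45.3% of the 3075 genes that stayed under 1 FPKM in every library. Tnfrsf19, an orphan receptor, was the only one of them with all MI libraries below all sham libraries, at 1 day and at 1 week. It had 0.0651, 0.0462 and 0.05201 FPKM in MI and 0.337, 0.516 and 0.452 FPKM in sham libraries at 1 day. It had 0.119, 0.108 and 0.205 FPKM in MI and 0.521, 0.718 and 0.605 FPKM in sham libraries at 1 week, and the groups overlapped at 8 weeks. Tnfrsf17 also averaged lower in MI than in sham libraries at 1 day (0.016 and 0.1475 FPKM) and 1 week (0.065 and 0.162 FPKM). It averaged higher at 8 weeks (0.2605 and 0.111 FPKM), and its groups overlapped at every stage. Tnfsf8, a ligand made by activated T cells, was highest in MI at 1 week (0.604, 0.536 and 0.507 FPKM in MI and 0.0539, 0.0135 and 0.0133 FPKM in sham libraries). The depth of the libraries is unknown, so the number of reads behind these low levels cannot be given.

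At least 1 difference between stages was called for 27 of the 28 tested members, where this held for 88.5% of all genes tested. From 1 day to 1 week, 11 members gained and 9 lost, where 60.0% of all genes were called higher in this contrast and 11.8% lower. From 1 week to 8 weeks, 1 gained and 12 lost, where 17.1% and 29.9% of genes did. Under the 3 other scalings the first split was 5 to 14, 9 to 15 and 5 to 14 (quantile normalization, median-ratio factors and the authors' normalized values). Shares of all genes under those scalings were not counted. Between 1 day and 8 weeks, 7 gained and 14 lost, where 51.8% and 11.9% of genes did. The 12 members that lost from 1 week to 8 weeks were receptors, but the loss of Ltbr, Tnfrsf11a, Tnfrsf22 and Fas was not called under median-ratio factors or without any 1 of several libraries. Leaving out 1 library gave 8 to 17 losses, 17 of them without MI replicate 3 of 8 weeks, where the ligands Tnfsf13 (-0.68) and Tnfsf12Tnfsf13 (-0.71) were called as well. Of the 9 ligands, 5 gained and 4 lost from 1 day to 1 week. Tnfsf14, Ltb, Tnf and Tnfsf9 lost, and Tnfsf10, Tnfsf12, Tnfsf12Tnfsf13, Tnfsf13 and Tnfsf13b gained. Tnfsf14 and Tnf passed the filter only through MI libraries of 1 day, which favours a loss from that stage. The gains of Tnfsf10 (0.41 under both) and Tnfsf13b (0.07 and 0.13) were not called under quantile normalization or with the authors' normalized values. The median gene gained 0.56 in this contrast. The largest loss was that of Tnfsf14 (-2.81 ± 0.15 (SE; adjusted p = 2.32e-09)) and the largest gain that of Tnfsf12 (2.12 ± 0.24 (SE; adjusted p = 2.13e-06)).

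At 8 weeks the calls depended on the scale of the libraries more than on any 1 library. Leaving out MI replicate 3 of 8 weeks changed the number of members higher at 8 weeks to 23, against 25 with it, with Eda2r and Tnfrsf22 no longer called, and gave 1 lower call (Tnfrsf21). Leaving out MI replicate 2 also gave 23, without Tnfsf10 and Tnfrsf22. By contrast, 14 of the 25 lost their call under at least 1 of the 3 other scalings, and 8 changed sign. How many of all genes did so was not counted.

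**Figure D5:**
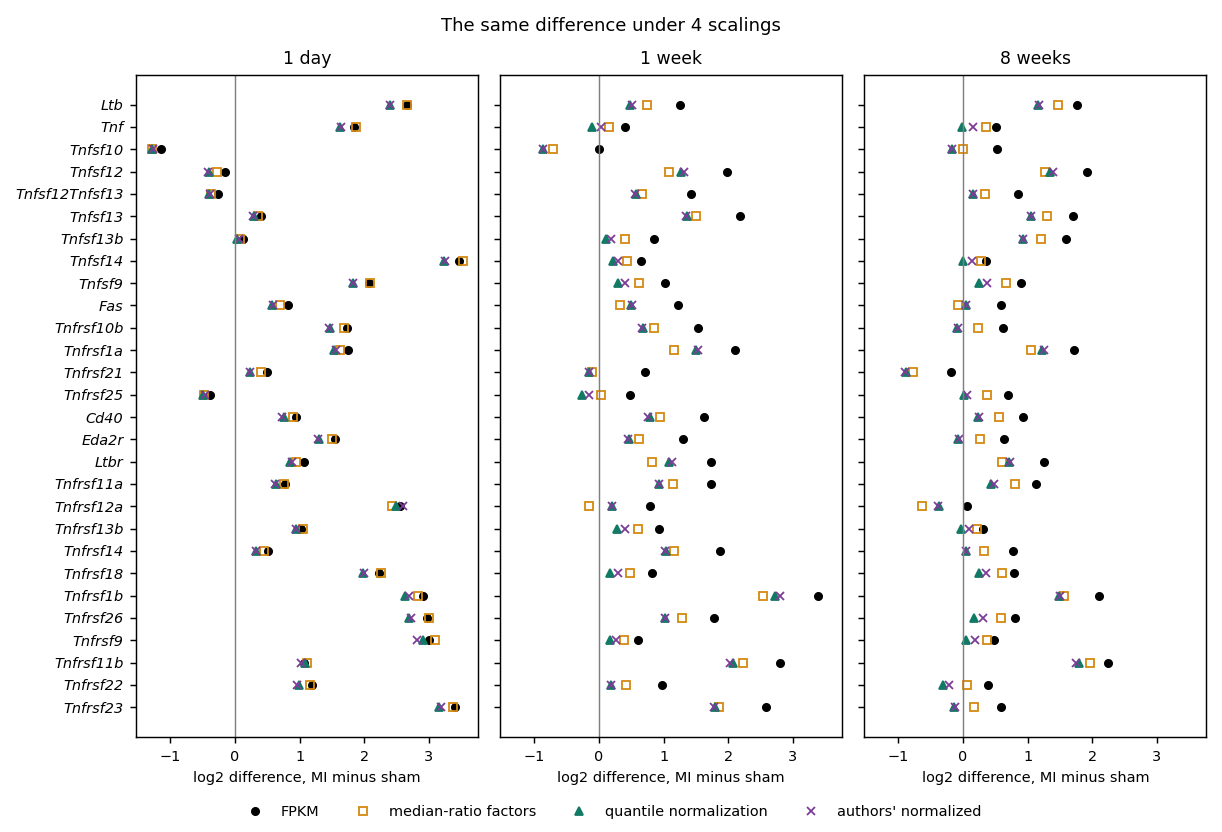
The MI minus sham difference of each tested member under FPKM as deposited and 3 other scalings (rows as in the plot of log2 differences, columns 1 day, 1 week and 8 weeks). The 4 symbols nearly coincide after 1 day, whereas after 1 week and 8 weeks FPKM lies to the right of the others and for 8 members called higher after 8 weeks the symbols fall on both sides of 0.

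Genes that act downstream of the family were counted as lists, against the shares of all genes given above. Of 28 adaptors, kinases and caspases of TNF receptor signalling, 18 were higher and 4 lower after 1 day, 25 and 1 after 1 week and 26 and 1 after 8 weeks, with median relative differences of 0.45, 0.21 and 0.10. The largest belonged to Tnfaip3, a ubiquitin editor that restrains NF-kappaB, which averaged 10.5 ± 2.82 FPKM in MI and 0.858 ± 0.20 FPKM in sham libraries at 1 day (SD, n = 3 each). Casp8, the initiator caspase of death receptors, averaged 22.5 ± 4.94 FPKM in MI and 3.56 ± 0.59 FPKM in sham libraries. Birc3, a ubiquitin ligase of TRAF complexes, averaged 16.4 ± 2.75 FPKM in MI and 2.61 ± 0.50 FPKM in sham libraries. Ripk1, the kinase recruited by Tnfrsf1a, was highest at 1 week, with 13.4 ± 1.27 FPKM in MI and 2.197 ± 0.21 FPKM in sham libraries. Fadd, which couples Fas to Casp8, was among the 4 lower at 1 day, with 2.77 ± 0.35 FPKM in MI and 4.12 ± 0.11 FPKM in sham libraries. Its limma difference was not called at 1 week (0.096, adjusted p = 0.239). At 8 weeks Fadd was called higher (0.487, adjusted p = 3.3e-05), or -0.037 relative to the median gene. Fadd was chosen after its values were seen.

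All 10 NF-kappaB subunits and inhibitors were higher after 1 day and after 1 week and 9 after 8 weeks, with median relative differences of 1.51, 0.57 and 0.59. Nfkbia, the inhibitor induced by NF-kappaB itself, averaged 84.3 ± 17.9 FPKM in MI and 13.2 ± 2.97 FPKM in sham libraries at 1 day. Nfkbiz averaged 12.6 ± 1.41 FPKM in MI and 1.00 ± 0.22 FPKM in sham libraries, and Bcl3 averaged 14.6 ± 4.05 FPKM in MI and 1.77 ± 0.20 FPKM in sham libraries. Nfkbie was highest at 1 week, with 5.57 ± 0.18 FPKM in MI and 0.625 ± 0.14 FPKM in sham libraries. Of 6 tested relatives and sheddases outside the symbol rule, 5 were higher after 1 day, 6 after 1 week and 4 after 8 weeks, and none was lower. Rell1, a receptor relative, averaged 16.3 ± 1.59 FPKM in MI and 2.46 ± 0.33 FPKM in sham libraries at 1 day, and Relt 7.23 ± 1.84 FPKM in MI and 0.949 ± 0.11 FPKM in sham libraries. Rhbdf2, which brings the Tnf sheddase Adam17 to the cell surface, averaged 13.4 ± 3.58 FPKM in MI and 2.88 ± 0.14 FPKM in sham libraries at 1 day. Adam10, a sheddase of several members, was highest at 1 week, with 45.8 ± 3.03 FPKM in MI and 10.1 ± 0.97 FPKM in sham libraries.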

How the data were processed

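RNA of left ventricles was pooled per library and prepared with a TruSeq RNA kit, and 18 mRNA libraries were sequenced, 3 in each of 6 groups. The submitters' processing notes list Bowtie2 2.2.3, Cufflinks 2.2.1 and TopHat2 2.0.13, and mm10 as the build. The authors deposited FPKM for each gene and library, and log2 values that they normalized across libraries. Read counts were not used here, so depth is unknown, and no interval for counting error can be given. Whether counting used strand is not stated, so a gene and an overlapping one on the other strand cannot be told apart. The deposited table also holds the authors' fold changes and p-values, which were not used, and small RNA libraries of the series were not used here.

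Genes that reached 1 FPKM in 3 or more of the 18 libraries (12858 of 16415) were tested on log2(FPKM + 1) with limma 3.58.1 (R 4.3.3), empirical Bayes with an intensity trend, 6 groups in 1 model with 12 residual degrees of freedom and Benjamini-Hochberg adjustment over all genes tested. A fold change on this scale understates the change of low genes. The contrasts were MI minus sham at each stage and the differences between stages. Calls have an adjusted p under 0.05. Ratios of gene pairs within a library were compared with an exact permutation test (numpy 2.4.6). The ratio of Tnfrsf11b to Tnfsf11 could not be formed. The fit was tested on simulated data. No 2 libraries were copies of each other.

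Every member is accounted for. Each library's value is given for members called in at least 1 stage with groups that did not overlap and a mean of at least 1 FPKM in a group. Of other lists, up to 4 genes with the largest called difference are named. The members and lists were chosen with earlier results of these data known. Alternatives were a pseudocount of 0.1, no filter, a mean of at least 5 FPKM, 3 other scalings, a block for the replicate number, each stage alone, a prior without trend, and leaving out each library. Promoter windows come from RefSeq (GRCm38.p6), which held 31 of the 38 members.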

Additional observations from a re-analysis of the deposited data

Results flagged for a closer look

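The MI minus sham difference changed between stages, by the limma contrast of both differences, for 27 of the 28 tested members, and at least 1 such difference was called for 88.5% of all genes tested. The largest called change of each is given on the log2 scale, with adjusted p between 7.57e-10 and 0.0264. Tnfsf14, Tnf and Tnfrsf9 passed the filter only through MI libraries of 1 day, which favours losses from that stage.

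A gain from 1 day to 1 week was the largest change of Tnfsf12 (2.12), Tnfsf13 (1.78), Tnfrsf11b (1.73), Tnfsf12Tnfsf13 (1.69), Tnfrsf14 (1.36) and Tnfrsf11a (0.95). Ltbr gained 0.66, a gain that was not called under any of the 3 other scalings and was -0.13 under median-ratio factors. The gain of Tnfrsf11a was not called under quantile normalization (0.30) or with the authors' normalized values (0.29). Tnf (-1.44) and Ltb (-1.41) had their largest called change as a loss between the same stages.

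From 1 week to 8 weeks the largest called changes were losses of Tnfrsf1b (-1.29), Tnfrsf21 (-0.90), Cd40 (-0.68) and Fas (-0.65). That of Fas was not called under median-ratio factors or without any 1 of 5 libraries, and that of Cd40 not with a pseudocount of 0.1.

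Between 1 day and 8 weeks the losses were those of Tnfsf14 (-3.11), Tnfrsf23 (-2.82), Tnfrsf9 (-2.53), Tnfrsf12a (-2.50), Tnfrsf26 (-2.17), Tnfrsf18 (-1.44), Tnfsf9 (-1.18), Tnfrsf10b (-1.11), Eda2r (-0.92), Tnfrsf22 (-0.82) and Tnfrsf13b (-0.72). The gains were those of Tnfsf10 (1.67), Tnfsf13b (1.46) and Tnfrsf25 (1.09). Each of these 14 kept its call and its direction under the 3 other scalings and without any single library.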

How the results depend on the processing

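Over 27 alternatives and 168 tests of the 28 members, 4051 of 4326 values kept their direction and their side of the threshold, 133 lost the call and 64 gained it with the same sign, and 78 changed sign (21 called as reported, 57 not). Why the values moved was not tested, except that fewer genes are tested under the stricter filter. Shares of all genes called were counted for the fit as reported only.

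With the stricter filter, which leaves 7 members tested, 6, 7 and 6 were called higher at the 3 stages and 0 lower at 1 day, and 2 gained and 2 lost from 1 day to 1 week, 0 and 4 from 1 week to 8 weeks, and 1 and 2 from 1 day to 8 weeks. With no filter 4 were lower after 1 day and 1 after 1 week, and 3 gained from 1 week to 8 weeks. Under quantile normalization 4, 2 and 2 were lower at the 3 stages, 11 were higher at 8 weeks, 5 gained and 14 lost from 1 day to 1 week, and 2 gained from 1 week to 8 weeks. Under median-ratio factors 1 was lower at 1 week and 2 at 8 weeks, 15 lost from 1 day to 1 week, and 2 gained from 1 week to 8 weeks. With the authors' normalized values 4, 1 and 1 were lower at the 3 stages, 13 were higher at 8 weeks, 5 gained and 14 lost from 1 day to 1 week, and 2 gained from 1 week to 8 weeks.

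Signs turned at 1 week for Tnfrsf12a (-0.16, median-ratio factors), Tnf (-0.12, quantile normalization), Tnfrsf21 (-0.16, -0.10 and -0.16 under quantile normalization, median-ratio factors and the authors' normalized values) and Tnfrsf25 (-0.27 and -0.16, quantile normalization and the authors' values). At 8 weeks they turned under quantile normalization and the authors' values for Tnfrsf10b (-0.095 and -0.077), Tnfrsf22 (-0.31 and -0.21), Tnfrsf23 (-0.14 and -0.13) and Eda2r (-0.083 and -0.057), under all 3 for Tnfsf10 (-0.17, -0.0092 and -0.17) and Tnfrsf12a (-0.37, -0.64 and -0.38), under quantile normalization for Tnf (-0.014), Tnfsf14 (-0.00026) and Tnfrsf13b (-0.027), and under median-ratio factors for Fas (-0.076). Of the changes from 1 day to 1 week, those of Tnfrsf21 (-0.385, -0.50 and -0.387), Tnfrsf1a (-0.034, -0.46 and -0.034) and Fas (-0.068, -0.36 and -0.070) turned under all 3, and those of Tnfrsf1b (-0.30) and Ltbr (-0.13) under median-ratio factors. From 1 week to 8 weeks Tnfsf12 (0.081, 0.19 and 0.085) and Tnfrsf18 (0.070, 0.13 and 0.058, and 0.20 with a pseudocount of 0.1) turned under all 3 and Tnfsf9 (0.050) under median-ratio factors. From 1 day to 8 weeks Tnfrsf14 (-0.29, -0.12 and -0.28) and Ltbr (-0.14, -0.35 and -0.14) turned under all 3, Tnfrsf11a (-0.20 and -0.14) under quantile normalization and the authors' values, and Cd40 (0.11) with a pseudocount of 0.1.

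With a pseudocount of 1 the log2 ratio of Tnfrsf1b to Tnfrsf1a differed by 1.17, 1.30 and 0.39 at the 3 stages and that of Tnfrsf13b to Tnfrsf13c by 0.88 and 0.61 at 1 day and 1 week. Leaving out each library in turn turned the sign of differences that were not called: it gave -0.098 to 0.11 for Tnfsf10 at 1 week, -0.22 to 0.20 for Tnfrsf12a and -0.41 to 0.061 for Tnfrsf21 at 8 weeks. From 1 week to 8 weeks it gave -0.13 to 0.083 for Tnfrsf18, -0.32 to 0.023 for Tnfsf9, -0.060 to 0.20 for Tnf, -0.29 to 0.21 for Tnfsf12 and -0.24 to 0.0041 for Tnfrsf9. From 1 day to 8 weeks it gave -0.32 to 0.26 for Tnfrsf1a, -0.14 to 0.15 for Cd40 and -0.013 to 0.33 for Ltbr. It also gave 0 to 1 members lower at 8 weeks (1 without MI replicate 3), 1 to 2 that gained from 1 week to 8 weeks (2 without MI replicate 1 of 8 weeks), and -0.64 to 0.0013 for the Tnfrsf13b to Tnfrsf13c ratio at 8 weeks.

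MI and sham libraries of the same replicate number correlated between -0.0919 and 0.290 in their deviations from the group means, and not every library correlated best with its own number, so they share only a number. With the replicate block 22, 26 and 25 members were higher at the 3 stages and 2, 0 and 0 lower, the same calls as without it.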
